A study of Homo sapiens and Mus musculus with 24 samples.

Results

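Hemogen is a regulator of red cell development that acts in the nucleus of haematopoietic cells. BRG1 is the motor subunit of the SWI/SNF (BAF) remodelling complexes, which use ATP to slide or evict nucleosomes and so open chromatin. Acetylation of histone H3 at lysine 27 (H3K27ac) marks active promoters and enhancers. The regions described here are those where hemogen and H3K27ac peaks were found together and no BRG1 peak was called. They were 356 of the 25631 hemogen regions of the fetal liver (1.39%), and 356 of the 10208 hemogen regions that were acetylated (3.49%, exact Clopper-Pearson 95% interval 3.14 to 3.86%).

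A hemogen or H3K27ac region is a set of overlapping wild-type (WT) peaks that holds at least 1 peak of each of the 2 libraries. A region was a member when it overlapped an H3K27ac region and shared no base with a BRG1 peak of WT library 1, of WT library 2 or of the WT group list, which the authors deposited for both libraries together. Over all hemogen regions, 39.8% overlapped an H3K27ac region and 27.1% overlapped no WT BRG1 peak. With the BRG1 group list kept, leaving out WT BRG1 library 1 or 2 gave 379 or 362 regions. That list covers both libraries, so the library left out still counted. With the group list left out as well, the number was 1991 or 1161. Taking the peaks of 1 library alone, in place of regions found in both, gave 846 and 1280 regions without hemogen library 1 and 2, and 561 and 872 without H3K27ac library 1 and 2. Members were chosen by WT hemogen, H3K27ac and BRG1 peak calls, and every WT hemogen, H3K27ac and BRG1 value below is a description with no test. Whether a BRG1 peak was called in the hemogen knockout (KO) is a measurement that played no part in the choice.

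The libraries analysed came from mouse fetal liver at embryonic day 14.5, a stage at which the liver makes red cells. BRG1 was precipitated from hemogen KO livers in 2 libraries, and from WT livers in 2 libraries. Hemogen, through an antibody against the HA tag, and H3K27ac were precipitated from WT livers, again in 2 libraries each. How the tag entered animals labelled WT and how the KO allele was made are not described in the labels, and the labels leave unsaid if each library is a separate animal, so any spread between libraries may be technical. A peak of whole liver does not say which cells carry it, and hemogen, H3K27ac and BRG1 called at 1 place need not share a cell. The 12 libraries of the human K562 line were not analysed here.

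The KO BRG1 lists held 3209 and 5602 peaks and the KO group list 13938, against 26330 and 21167 peaks and 37655 in the WT BRG1 lists. The lists held 53063 and 42871 peaks for hemogen and 69883 and 45548 for H3K27ac. The lists carry no read counts, and a place with no called peak is not thereby a place with no BRG1. Each peak has the authors' fold enrichment over local background and −log10 p. Strength below is the mean, over the 2 libraries, of a peak's percentile of −log10 p within its own library list, so that 50 is the middle of a list. A gene annotation and a genome of the mouse were not used here, so regions are named by position and no bases are shown. No label used here names the build. Peaks reached position 195241899 of chromosome 1, which lies within that chromosome in mm10 and beyond its end in the later mouse build. Builds before mm10 were not compared, so this position does not settle the build. Positions are 1-based.

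The members were weak hemogen regions with acetylation near the middle of its lists. Their hemogen strength had a median of 43.5 (quartiles 29.6 and 59.0), against 84.8 (72.1 and 92.9) in the 7795 acetylated regions with a BRG1 region found in both libraries and 43.2 (29.9 and 57.4) in the 6587 hemogen regions with neither H3K27ac nor BRG1. The 2 libraries gave the same order of medians between members and acetylated regions with BRG1. In library 1 the median percentile was 47.7 in members and 88.1 in regions with BRG1, and in library 2 it was 42.0 and 84.4. Only 22 members (6.18%) had a hemogen strength over 75, against 70.6% of the acetylated regions with BRG1.

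The authors' fold of the strongest hemogen peak lay between 2.26 and 8.53 in library 1, with a median of 3.78, and between 2.25 and 8.64 in library 2, with a median of 3.89. Acetylated regions with BRG1 had median folds of 5.67 and 5.21 in libraries 1 and 2. Members were also narrow, with a median width of 564 bp, against 1755 bp with BRG1 and 491 bp with neither. In 311 of the 356, each library held exactly 1 hemogen peak. The summits of the 2 libraries lay a median of 100.5 bp apart in members, 148 bp apart in acetylated regions with BRG1 and 93 bp apart in regions with neither.

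H3K27ac at the members differed less from that at regions with BRG1. The H3K27ac region under a member had a median strength of 56.2 (quartiles 42.0 and 75.5), against 78.6 (59.3 and 90.7) under acetylated regions with BRG1. Its median fold was 4.05 and 4.30 in H3K27ac libraries 1 and 2, against 4.55 and 4.51 with BRG1. Strong acetylation occurred among the members. The strength of H3K27ac was over 75 at 91 of them and over 90 at 40, and 7 of these 40 had a hemogen strength under 25. The longer H3K27ac group list held 353 of the 356.

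**Figure D1:**
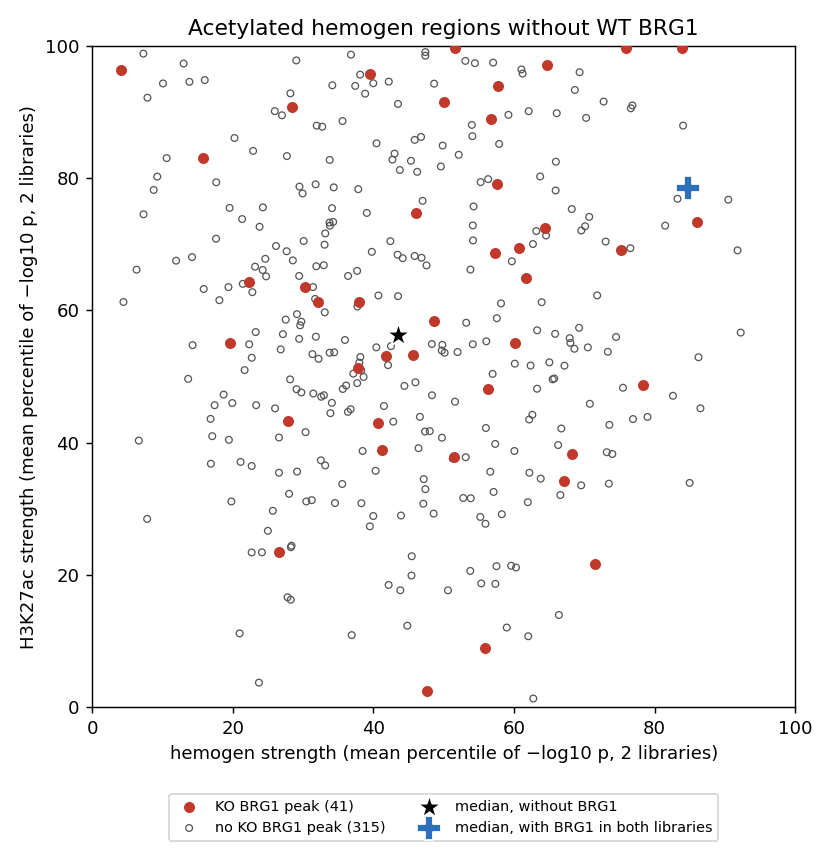
Hemogen strength (x axis) and H3K27ac strength (y axis) of the 356 acetylated hemogen regions without WT BRG1, each the mean percentile of −log10 p over 2 libraries. Filled points are the 41 with a KO BRG1 peak, open points the 315 without; the star marks the median of the regions (43.5 and 56.2) and the cross that of the acetylated regions with BRG1 in both libraries (84.8 and 78.6).

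Absence of a WT BRG1 call followed hemogen strength closely and H3K27ac strength less. When the 10208 acetylated hemogen regions were split into 5 equal bins of hemogen strength, 253 of the 2042 regions of the weakest bin held no BRG1 peak (12.4%), then 80 of 2041 (3.92%), 16 of 2042 (0.784%) and 7 of 2041 (0.343%). In the strongest bin there were 0 of 2042, which allows a share of up to 0.180% (exact 95% interval). Over 5 such bins of H3K27ac strength, the share was 6.46%, 4.56%, 3.04%, 1.67% and 1.71% from weakest to strongest. The rule uses these same lists, so these shares describe the choice of members.

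The 2 strengths can also be read together. Among regions of the weakest hemogen bin, the share without BRG1 was 15.5% of 607 at the weakest acetylation and 11.2% of 223 at the strongest. In the next hemogen bin it was 5.88% of 527 and 3.46% of 231. Across hemogen bins at the strongest acetylation it stood at 11.2% in the weakest and 0% of 719 in the strongest, so the share changed more along hemogen strength than along acetylation.

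**Figure D2:**
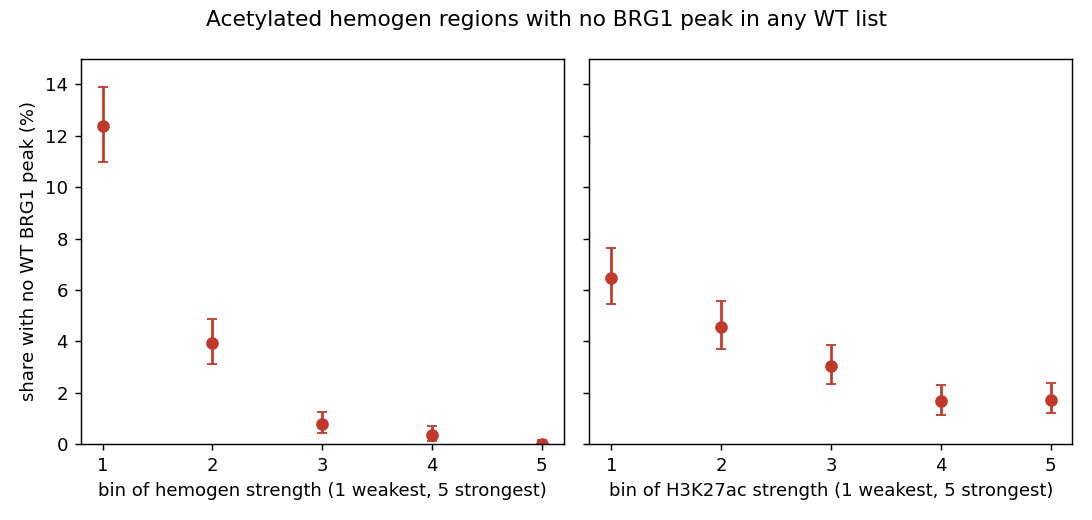
Share of acetylated hemogen regions with no BRG1 peak in any of the 3 WT lists, in 5 equal bins of hemogen strength (left) and of H3K27ac strength (right); bars are exact 95% intervals that cover counting error only. The share is 12.4% in the weakest hemogen bin and 0% in the strongest, and 6.46% and 1.71% in those of H3K27ac.

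The acetylated region covered the hemogen summit in some members and only a flank in others. The summit lay inside an H3K27ac region in 179 members in library 1 (50.3%) and in 196 in library 2 (55.1%), against 61.9% and 60.3% of the acetylated regions with BRG1. In 119 members it lay outside in both libraries, so that acetylation touched only a flank of the hemogen peak. The shared stretch had a median of 283 bp, and 1 bp at the least. With an overlap of 50% of the shorter interval required throughout, 298 regions met the rule.

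Around the hemogen summit of library 1, H3K27ac peaks of library 1 covered 48.3% of members at the summit itself, and 30.9% and 32.0% at 500 bp to either side. In acetylated regions with BRG1 these shares were 58.7% at the summit and 39.6% and 41.8% beside it. Farther out, the values given are those of the longer H3K27ac group list. Distance and list therefore change together, and the order there cannot be set against that of library 1. At 3000 bp on either side that list covered 32.0% and 32.9% of members, against 25.7% and 24.5% of acetylated regions with BRG1 and 10.2% and 9.79% of regions with neither.

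**Figure D3:**
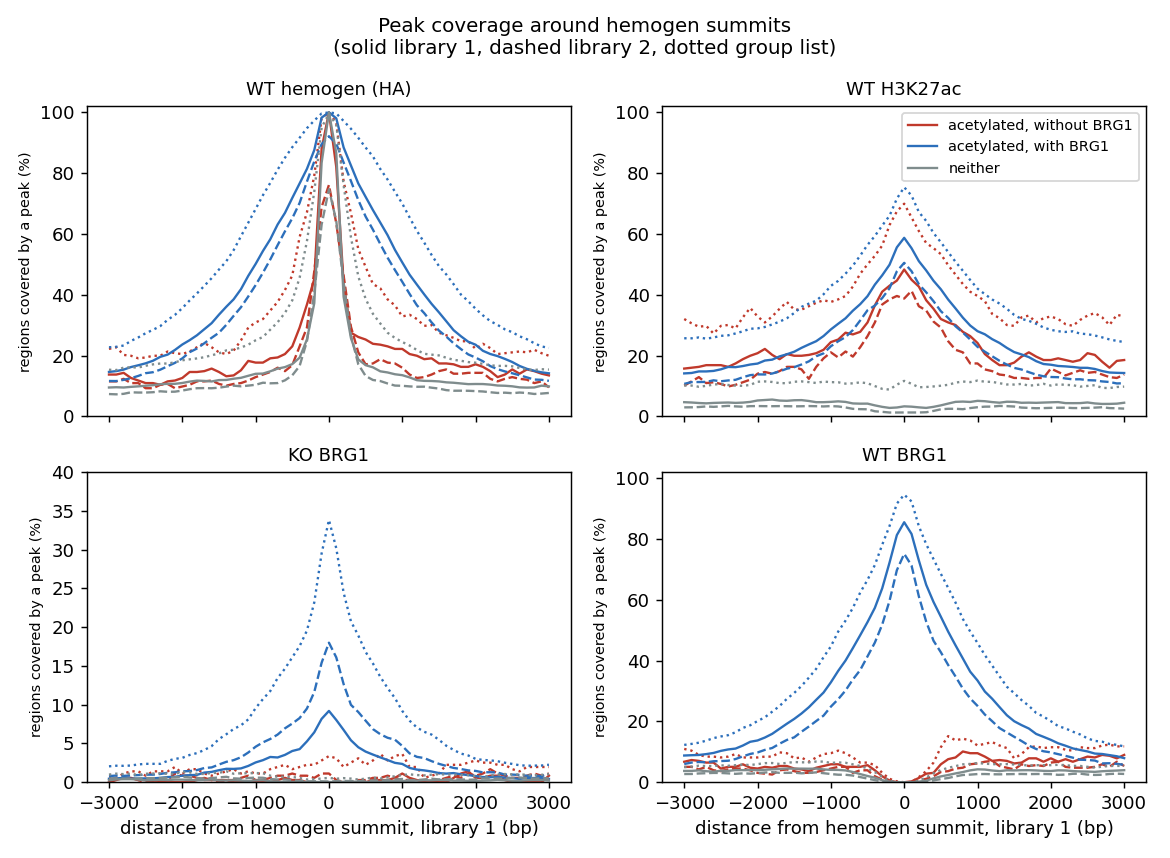
Share of hemogen regions covered by a peak (y axis, percent) at each distance from the hemogen summit of library 1 (x axis, bp), for acetylated regions without BRG1, acetylated regions with BRG1 in both libraries and regions with neither; solid, dashed and dotted lines are library 1, library 2 and the group list, and the KO BRG1 panel has its own scale. In regions without BRG1 the WT BRG1 share is 0% at the summit, by the rule, and H3K27ac coverage is highest at or near the summit.

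The members lay in the neighbourhood of BRG1 more often than hemogen regions with neither mark. The nearest BRG1 peak of any WT list was a median of 1363 bp away (quartiles 284 and 7652 bp), against 7703 bp (914 and 33721 bp) for regions with neither. It was within 1000 bp of 164 members (46.1%), against 26% of the regions with neither. In 64 members (18.0%) a WT BRG1 peak sat elsewhere within the same H3K27ac region. At the other end, 43 members (12.1%) had no WT BRG1 peak within 20000 bp, against 33.6% of the regions with neither.

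Joining H3K27ac regions less than 10000 bp apart gave 8459 domains, of which 64.5% held a BRG1 region found in both libraries. The domains of 203 members (57.0%) did so, and those of 105 members held no WT BRG1 peak of any list. The 64.5% counts domains and the 57.0% counts members, so they cannot be set against each other. A lone H3K27ac region made up the domain of 100 members (28.1%), against 34.7% of the acetylated regions with BRG1. The members were spread over chromosomes 1 to 19 and X, and 25 of them started within 10000 bp of another member. Chromosome 2 held 42 (11.8%, against 7.98% of all hemogen regions) and chromosome X held 1 (0.281%, against 1.75%). Chromosome X had only 73 acetylated hemogen regions, of which members were 1.37%. On chromosome 2 members were 4.81% of 873, against 3.49% over all chromosomes used.

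The edge of the rule is a matter of single bases. The members nearest to a WT BRG1 peak were 8 to 27 bp from it. The nearest, at chr6:88834686-88835298, had hemogen folds of 2.98 and 3.36 in libraries 1 and 2. Just outside, the 5 acetylated regions with the shortest BRG1 overlap shared 1 to 9 bp with a BRG1 peak. The first of these, at chr2:147012324-147013140, had hemogen folds of 5.08 and 3.63 and touched a peak of the group list alone. In all, 2057 acetylated hemogen regions had a WT BRG1 peak in some list but no region found in both libraries. Library 1 alone of the 2 libraries held a peak at 1105 of them, library 2 alone at 333, and 447 had one in the group list only. Their hemogen strength, with a median of 59.9, lay between that of members and of regions with BRG1 in both libraries.

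BRG1 peaks of the hemogen KO livers were found at 41 of the 356 members (11.5%, exact 95% interval 8.39 to 15.3%), although no WT list had one there. Over all 25631 hemogen regions, most of which held BRG1 in WT, the share with a KO peak in any list was 32.5%, so the members stood below that background. The regions to set beside them are the 6587 hemogen regions that also lacked WT BRG1 but lacked H3K27ac too, and there it was 122 (1.85%, 1.54 to 2.2%). The longer H3K27ac group list, which the rule did not use, touched 1687 of those 6587. Acetylated regions with BRG1 in both WT libraries had a KO peak in 75.7% of cases and those with WT BRG1 in some list in 28.4%.

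The calls rested on the KO group list. With it kept, leaving out KO library 1 or 2 gave a share of 11.5% or 11%, and leaving out WT BRG1 library 1 or 2 gave 11.9% or 11.3%. Leaving out a WT BRG1 library together with the WT group list moved it to 24.9% (library 1) or 20.0% (library 2), and members drawn from 1 hemogen library alone had 8.04% (library 2) or 6.95% (library 1). The group list held a peak at 39 members (11%, against 31.4% of all hemogen regions and 1.59% of those with neither). KO library 1 held a peak at 1 member (0.281%, against a background of 9.93% and 0.106% with neither), and KO library 2 at 8 (2.25%, against 16.2% and 0.380% with neither). Either KO library held a peak at 9 members (2.53%, against 19.8% of all hemogen regions and 0.486% of those with neither), and no member was called in both. In each of the 3 lists the share was higher in the members than in the regions with neither, but in library 1 the 95% intervals overlapped, at 0.00711 to 1.56% and 0.0427 to 0.219%. Regions are not replicates, these intervals cover counting error only, and no test over samples was run.

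**Figure D4:**
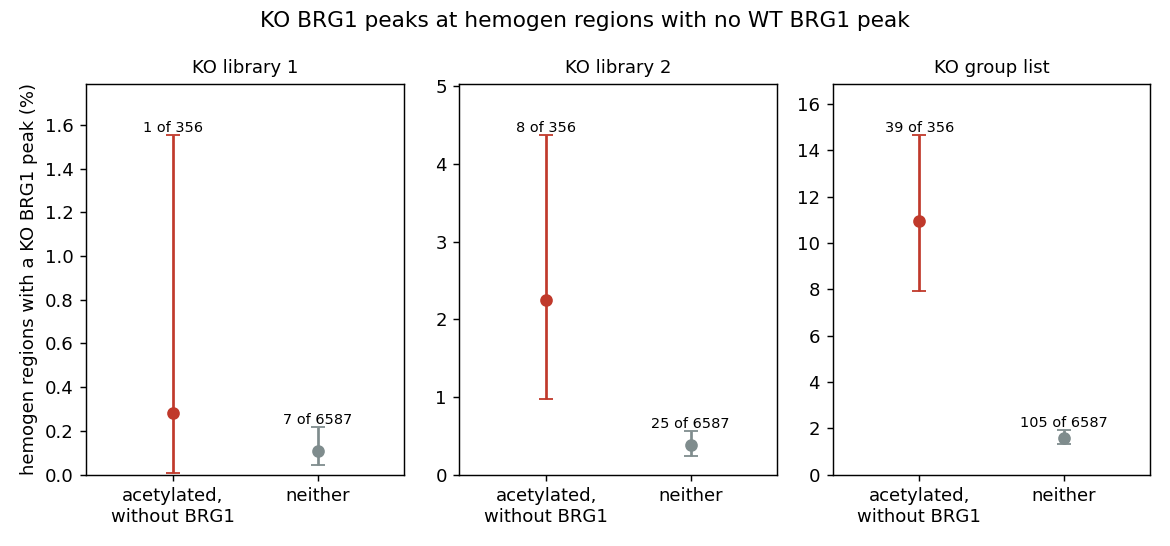
Share of hemogen regions with a BRG1 peak in KO library 1, KO library 2 and the KO group list (y axis, percent; the 3 panels differ in scale), for acetylated regions without WT BRG1 (left in each panel) and regions with neither mark (right). Bars are exact 95% intervals over regions; the group list calls 39 of 356 and 105 of 6587.

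Most KO peaks at members kept clear of WT BRG1 peaks along their whole length, beyond the member too. At 38 of the 41, a KO peak shared no base with any WT BRG1 peak (10.7% of members, against 1.41% of all hemogen regions and 1.78% of those with neither). Members and regions with neither hold no WT BRG1 peak by definition, whereas most hemogen regions do. Only the 1.78% is therefore a like background. At the other 3, the KO peak reached over to a neighbouring WT peak. In regions with neither, 117 of the 122 with a KO peak had one clear of WT BRG1, so this was not particular to the members. KO peaks clear of WT BRG1 were 64 of 3205 in library 1 (2.00%), 232 of 5592 in library 2 (4.15%) and 1516 of 13938 in the group list (10.9%). Those whole lists were not chosen to lack WT BRG1. Of these 1516 group peaks, 326 lay on a hemogen region and 38 on a member.

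The 39 peaks of the KO group list at members had a median fold of 4.10 and a range of 2.79 to 6.09, against a median of 3.95 over that whole list. By −log10 p they lay below the middle of it, at a median percentile of 37.8, and the 8 peaks of KO library 2 at 32.4 of theirs. The summits of the 39 lay a median of 149 bp from the hemogen summit of WT library 1, and within 200 bp in 21 cases. At a minimum −log10 q of 5 in the KO lists, only 2 members kept a KO call, against 13 of the 6587 regions with neither (0.562% and 0.197%).

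The share of KO calls was higher in members in each of 4 bins of hemogen strength. For strengths up to 25, above 25 to 50, above 50 to 75 and above 75, it was 4 of 59, 16 of 161, 16 of 114 and 5 of 22 members, or 6.78%, 9.94%, 14% and 22.7%. Among regions with neither, the shares in the same bins were 2.05%, 1.61%, 2.16% and 1.57%. In the weakest bin the exact 95% intervals overlapped, at 1.88 to 16.5% in members and 1.3 to 3.06% in regions with neither. Within the members, the intervals of all 4 bins overlapped one another, and that of the strongest bin was 7.82 to 45.4%. The calls of the strongest bin include neighbouring members of 1 H3K27ac region on chromosome 4. A rise with hemogen strength within the members was not tested. Weighted to the members' hemogen strength, the share in regions with neither was 1.86%.

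The KO share neither rose nor fell steadily with distance from WT BRG1. Members within 200 bp of a WT BRG1 peak had a KO peak in 9 of 71 cases (12.7%), and members over 20000 bp away in 7 of 43 (16.3%), with 8.54% to 12.9% at the distances between. Regions with neither had 2.96% within 200 bp, 1.40% beyond 20000 bp and 1.46% to 2.39% between.

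**Figure D5:**
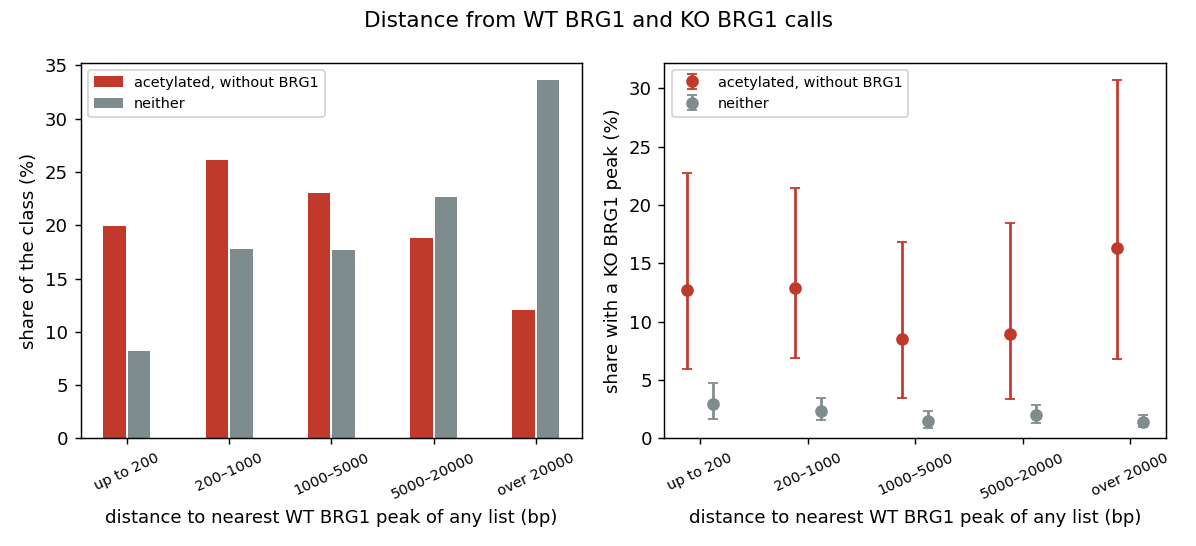
Distance to the nearest WT BRG1 peak of any list (x axis, bp, in 5 bins) for acetylated hemogen regions without BRG1 and for regions with neither mark; the left panel gives the share of each class (percent) and the right panel the share of each bin with a KO BRG1 peak (percent, exact 95% intervals over regions). In each of the 5 bins the KO share is higher in the acetylated regions, at 8.54% to 16.3% against 1.40% to 2.96%.

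The same comparison can be turned to acetylated places with and without hemogen. Of the 309 H3K27ac regions that held a member and no WT BRG1 peak, 32 overlapped a KO BRG1 peak (10.4%, exact 95% interval 7.19 to 14.3%). Among the 10991 H3K27ac regions with neither a hemogen region nor a WT BRG1 peak, 165 did (1.5%, 1.28 to 1.75%). With every hemogen peak of any list left out as well, it was 81 of 9210 (0.879%). The 2 sets were alike in width and strength, with medians of 449 and 460 bp and of 54.8 and 53.0. In the 4 bins of H3K27ac strength the share was 10.7%, 7.07%, 12.8% and 10.8% with a member, from weakest to strongest, and 1.12%, 0.893%, 1.56% and 2.75% without hemogen. By library, KO library 1 called 1 and KO library 2 called 4 of the 309, against 4 and 23 of the 10991. The share over all 25305 H3K27ac regions is not given here, so these values stand only beside other H3K27ac regions without WT BRG1.

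Members with a KO peak had a median hemogen strength of 51.4, against 42.4 in the 315 without, and a median H3K27ac strength of 63.6, against 55.7. They lay a median of 525 bp from the nearest WT BRG1 peak, against 1375 bp, but 21 of the 41 lay within 1000 bp of one (51.2%), near the 46.1% of all members. A KO peak was found at 12.8% of the members within 1000 bp and at 10.4% of the 192 beyond it.

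The strongest member by hemogen lay at chr11:87046436-87047561, with hemogen folds of 6.68 and 8.64 in libraries 1 and 2 (strength 92.3). Its H3K27ac region had folds of 3.48 and 5.42, the nearest WT BRG1 peak was 8567 bp away, and no KO list had a peak there. Next came chr16:32669875-32670822, with hemogen folds of 7.0 and 6.17 and H3K27ac folds of 5.42 and 3.85. In libraries 1 and 2, their hemogen peaks stood at percentiles 86.6 and 97.9 of the list in the first and 93.6 and 89.9 in the second. They were named for the highest mean of these percentiles, so high ranks in both libraries are part of the choice.

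The third, at chr2:121235136-121236183, had hemogen folds of 4.79 and 6.07 and a WT BRG1 peak 72 bp away. The fourth, at chr13:102753966-102754479, had 5.66 and 6.53 and lay 150813 bp from any WT BRG1 peak. The rest of the 10 strongest had hemogen folds between 3.93 and 7.75 and strengths from 86.2 down to 83.3. They lay at chr2:25110660-25111701, chr2:131152343-131152801, chr3:122111289-122112161, chr4:11146634-11147595, chr4:62513635-62514643 and chr1:133843556-133844484.

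Of these 10, 2 had a KO BRG1 peak, and both peaks were in the group list alone. The member on chromosome 3 had a KO fold of 3.91, with hemogen folds of 6.08 and 5.80 and H3K27ac folds of 6.42 and 4.0. Its nearest WT BRG1 peak was 150 bp away, but the nearest BRG1 region found in both WT libraries was 133244 bp away. The other, on chromosome 4, belongs to the densest group of members.

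That group is a single H3K27ac region at chr4:62509982-62514477, 4496 bp wide, with folds of 5.62 and 8.50 and a strength of 99.7. It held 3 members side by side, from 62510535 to 62511731, from 62511950 to 62513504 and from 62513635 to 62514643. Their hemogen folds were 4.90 and 4.36 in the first, 4.36 and 3.55 in the second and 4.58 and 5.58 in the third. All 3 had a peak in the KO group list, with folds of 3.46, 3.66 and 3.40, and the first also had the only peak of KO library 1 at any member, with a fold of 4.96. No WT BRG1 peak was touched by these KO peaks, and the nearest WT BRG1 peak was 3129, 1356 and 217 bp away. Nearby members outside that H3K27ac region, at chr4:62509266-62509746 and chr4:62523108-62523817, had no KO peak. Without the 3 members inside it, 38 of 353 members had a KO peak (10.8%).

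Other members in wide H3K27ac regions differed from these. The widest such region, of 5619 bp on chromosome 10, held a weak hemogen region at chr10:80862367-80862786 with hemogen folds of 2.63 and 2.41 and H3K27ac folds of 5.95 and 5.10, and no KO peak. The next, of 4685 bp on chromosome 2, held a member at chr2:153525137-153525497 with hemogen folds of 4.21 and 4.19. Its KO group peak, of fold 2.99, also overlapped a WT BRG1 peak, and the nearest WT BRG1 peak was 114 bp from the member.

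The other 2 of the 5 strongest members with a KO peak lie outside that H3K27ac region and farther from WT BRG1. The one at chr11:84592806-84593394 had hemogen folds of 4.65 and 6.57, a KO group fold of 4.12 and no WT BRG1 peak within 79578 bp. The one at chr6:124492673-124494023 had 3.72 and 6.73, a KO group fold of 5.02 and the nearest WT BRG1 peak 19492 bp away.

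The 8 members with a peak in KO library 2, named after their values were seen, had KO folds from 4.32 to 7.25 there, and 6 of them also had a peak in the KO group list. The highest was at chr12:10391148-10391478, with a KO fold of 7.25 in library 2 and 5.53 in the group list, hemogen folds of 4.13 and 3.21, and a WT BRG1 peak 218 bp away. The most isolated lay at chr9:47133891-47134285. It had KO folds of 4.99 and 5.74 in library 2 and the group list, hemogen folds of 4.45 and 4.36, and no WT BRG1 peak within 850474 bp. Its H3K27ac folds were 2.98 and 3.17, with a strength of only 2.44, near the bottom of the H3K27ac lists. The member farthest from WT BRG1, at chr5:48372382-48372838 and 1642899 bp away, also had a KO peak, of fold 5.45 in the group list alone, with hemogen folds of 2.88 and 5.40 and H3K27ac folds of 2.91 and 5.06.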

How the data were processed

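The deposited peak lists cover 8 mouse immunoprecipitates and, for both libraries of a group together, 4 groups. They have no header line. For every peak the authors deposited the fold, which is the ratio of signal to local background, a −log10 p-value, a −log10 q-value and a score of 10 times that −log10 q. The submitters' processing notes name MACS2 2.2.7.1, Bowtie2 2.3.5, Picard 2.21.4 and SAMtools 1.9, without a role. Build, filters and calling control: not given in the sources used here. No read depth is in the lists. Sample titles gave the groups and replicate numbers.

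Only the 19 autosomes and chromosome X were used, leaving out 0 to 10 peaks per list. Overlap means at least 1 bp shared. A region's values are those of its peak with the highest −log10 p in each library; H3K27ac values belong to the H3K27ac region sharing most bases with the hemogen region. Distances count from edge to edge. Shares have exact Clopper-Pearson 95% intervals, which cover counting error only. No test over libraries was run; 2 against 2 cannot reach below p = 0.33 by exact permutation, two-sided. The members, comparisons and named regions (by hemogen strength, KO peak, distance from WT BRG1 and H3K27ac width) were chosen with earlier results of these data known. The alternatives were group lists, 50% overlap, a minimum −log10 q of 5, other BRG1 and acetylation rules and each library left out. On 700 simulated peaks, overlaps, gaps and merging had 0 differences from a direct comparison. The planned analyses of transcription starts, gene lists, GC content and motifs needed a mouse annotation or genome and were left out. Scripts ran in Python 3.11.15 with SciPy 1.17.1, NumPy 2.4.6, Matplotlib 3.10.9 and pandas 2.3.3.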

Additional observations from a re-analysis of the deposited data

How the results depend on the processing

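The number of acetylated hemogen regions without BRG1 depends on the lists. It was 356 as reported and 298 at 50% overlap (3.23% of acetylated hemogen regions). It moved to 192 (1.88%) when a BRG1 peak within 1000 bp excluded a region, 117 (2.55%) at a minimum −log10 q of 5 in every list, 2413 (23.6%) when only BRG1 regions found in both libraries excluded, 2040 (11.6%) with the H3K27ac group list as acetylation and 12851 (40.3%) on the group lists of hemogen and H3K27ac. The hemogen group list carries other numbers in its label than in its peak names, whose numbers are those of the 2 library lists. With 1 WT library left out, and for BRG1 the group list too, it ran from 561 (4.86%, without H3K27ac library 1) to 1991 (19.5%, without BRG1 library 1). With the BRG1 group list kept, chosen after the data were seen, it was 379 (3.71%) or 362 (3.55%) without BRG1 library 1 or 2. That list still covers the library left out. Requiring fewer lists to hold a hemogen or H3K27ac peak, or fewer BRG1 lists to be empty, widens the rule by construction.

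The share with a KO BRG1 peak, 11.5% as reported, was 10.4% without members within 1000 bp of WT BRG1 and 12.1% at 50% overlap. It moved to 5.13% at a −log10 q of 5 in every list, 5.69% with the H3K27ac group list, 2.82% on group lists and 25.9% when only BRG1 regions found in both libraries excluded. With 1 library left out, and for BRG1 its group list too, it ran from 0.281% (KO library 1 alone) to 24.9% (without WT BRG1 library 1 and the WT group list). Among alternatives chosen after the data were seen, it was 11% to 11.9% with 1 KO or WT BRG1 library left out and the group lists kept. Those lists still cover the library left out. It was 2.53% for a call in either KO library, 0% for a call in both and 0.562% at a −log10 q of 5 in the KO lists alone. Rules that leave fewer KO peaks lower the share by construction. For the rest, the cause was not tested. In 22 of the 23 alternatives the share was higher in the members than in regions with neither, by 2.64 to 7.0 times (6.22 times as reported). In the other, a call in both KO libraries, both shares were 0%. The alternatives reuse the same peaks and are not independent of one another. The lowest ratio, with KO library 1 alone, rests on 1 member against 7 of the 6587 regions with neither.

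Alternatives for transcription starts, GC content and motifs were not run, since no mouse genome or annotation was used. No paired analysis was possible because the results come from no test over libraries; the shares in members and in regions with neither stand side by side within each KO library in the account of the KO calls.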
